A study of Mus musculus with 11 samples.

Results

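Transcript levels of mouse embryonic stem (ES) cells without Dnmt3a and Dnmt3b (DKO) were set against those of wild-type cells (WT), with 1 library in each group. Of the 24016 genes in the deposited table, the 12782 at 1 RPKM or more in DKO or in WT were compared (RPKM, reads per kilobase of transcript and per M mapped reads). The DKO line carried knockouts of both de novo methyltransferases. The WT line was J1. All lines were labelled strain 129S4/SvJae and were kept on irradiated mouse embryonic fibroblasts in medium with serum and LIF, so that both libraries could hold feeder RNA. Of the other 9 libraries in the series, 3 came from DKO cells given back Dnmt3a1, Dnmt3a2 or Dnmt3b1, and 6 from the TKO family, which also lacks Dnmt1. These were 2 of TKO+Dnmt3a1, 2 of TKO+Dnmt3a2 and 1 each of TKO and TKO+Dnmt3b1. TKO+Dnmt3a1 and TKO+Dnmt3a2 gave the only measure of spread between libraries. DKO and WT stand for 1 line each, and a difference between genotypes and a difference between lines cannot be told apart.

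Dnmt3a and Dnmt3b place methyl groups on CpG sites that carry none, and Dnmt1 copies the pattern onto the new strand after replication. In mouse ES cells methylated promoters are known for keeping germline genes and several X-linked gene families silent, and methylated control regions mark 1 parental copy of imprinted genes. ES cells without the de novo enzymes still hold Dnmt1 and are known to lose methylation gradually in culture, and the number of passages was not given in the sources used here.

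Both libraries expressed ES cell genes. Pou5f1, the central pluripotency factor, was at 553 RPKM in DKO and 729 RPKM in WT. Sox2 was at 265 RPKM in DKO and 260.1 RPKM in WT, and Nanog at 164 RPKM in DKO and 214 RPKM in WT. The read total implied by the spacing of RPKM values was 29.3 M reads in DKO and 32.4 M reads in WT, and 21.7 to 32.8 M reads over the 11 libraries. One read in a transcript of 2 kb was then worth 0.0171 RPKM in DKO and 0.0154 RPKM in WT. Of all genes in the table, 12478 reached 1 RPKM in DKO and 12162 in WT.

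The targeted genes were low in DKO. Dnmt3a stood at 3.63 RPKM in DKO, against 22.7 RPKM in WT, and at 17.6, 11.4 and 6.76 RPKM in DKO+Dnmt3a1, DKO+Dnmt3a2 and DKO+Dnmt3b1. Dnmt3b stood at 5.68 RPKM in DKO, against 25.0 RPKM in WT, and at 13.3, 14.7 and 29.6 RPKM in the same 3 lines. On the scale used throughout, log2(RPKM + 0.5), the DKO minus WT differences were −2.49 for Dnmt3a and −2.05 for Dnmt3b. The maintenance enzyme Dnmt1 was at 74.5 RPKM in DKO and 71.0 RPKM in WT, and Uhrf1, which brings Dnmt1 to replicated DNA, at 111 RPKM in DKO and 114 RPKM in WT. Dnmt3l, the inactive partner of the de novo enzymes, was at 139.7 RPKM in DKO and 97.0 RPKM in WT, a difference of 0.52. The knockout alleles still gave reads, and 1 value a gene does not show which exons they cover.

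A gene was counted as different under the fold rule when DKO and WT differed at least 2-fold and by more than the same gene differed between the 2 libraries of TKO+Dnmt3a1 and between those of TKO+Dnmt3a2. Under this rule 556 genes were higher in DKO, 4.35% of those compared, and 160 were lower, 1.25%, or 5.6% in either direction. Higher genes made up 77.7% of these calls, 70.0% after median ratio scaling (496 higher, 213 lower) and 63.8% after quantile normalization (441 higher, 250 lower). A 4-fold minimum left 88 genes higher (0.688%) and 23 lower (0.18%). A difference of 2-fold alone was found for 778 genes between DKO and WT (6.09%), 598 of them higher (4.68%) and 180 lower (1.41%). Between replicate libraries it was found for 313 of 12898 genes in TKO+Dnmt3a1 (2.43%) and 518 of 13172 genes in TKO+Dnmt3a2 (3.93%). The same 12782 genes gave 248 such differences between the TKO+Dnmt3a1 libraries (1.94%) and 420 between the TKO+Dnmt3a2 libraries (3.29%). The SD of the log2 differences was 0.52 for DKO against WT, and 0.36 and 0.44 for the 2 pairs. Their median size was 0.24 for DKO against WT, 0.17 for TKO+Dnmt3a1 and 0.25 for TKO+Dnmt3a2. By median size DKO against WT thus lay between the 2 pairs. The median difference over all genes was 0.04, and −0.03 and −0.02 after the 2 rescalings.

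**Figure D1:**
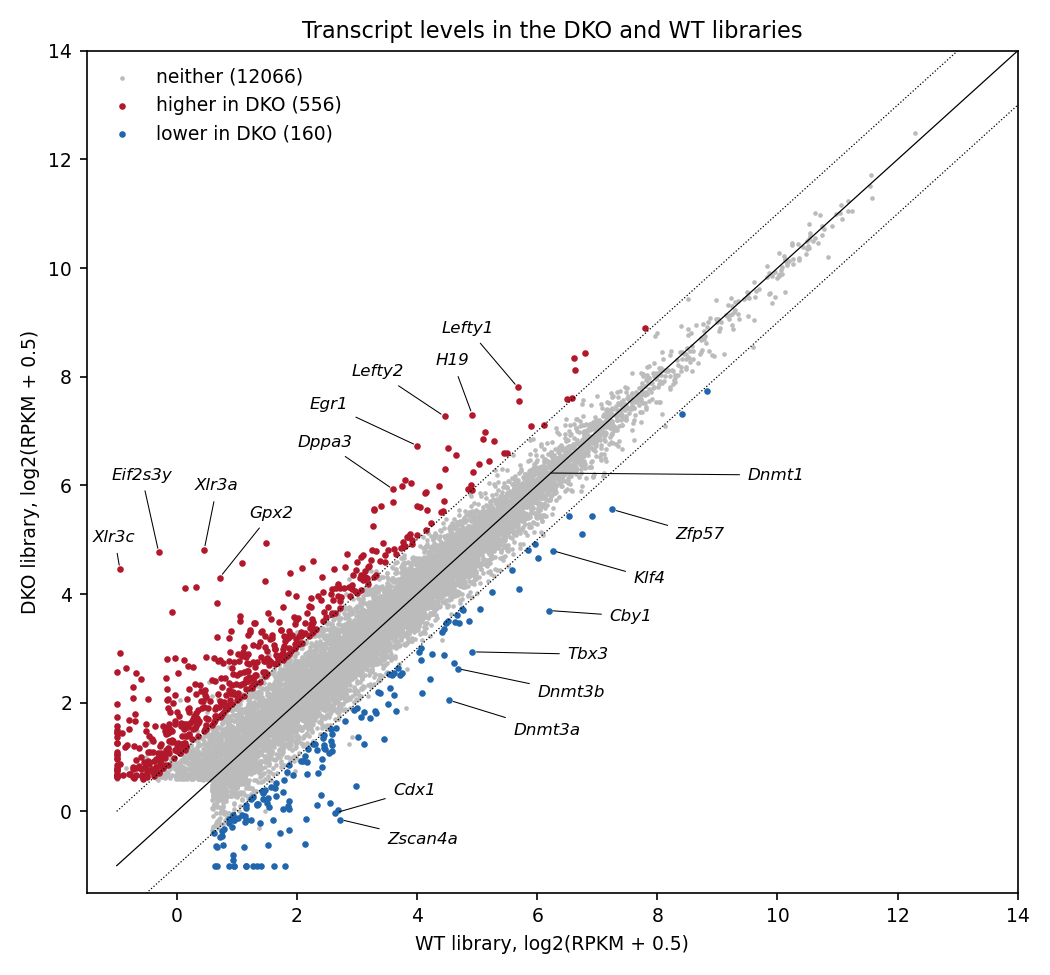
Levels of the 12782 genes in the DKO library (vertical axis) against the WT library (horizontal axis), both as log2(RPKM + 0.5), with 1 point a gene. The 556 genes higher and 160 genes lower in DKO by the fold rule are coloured, the solid line marks equal levels and the dotted lines a 2-fold difference; Dnmt1 lies on the solid line and Dnmt3a and Dnmt3b below the lower dotted line.

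**Figure D2:**
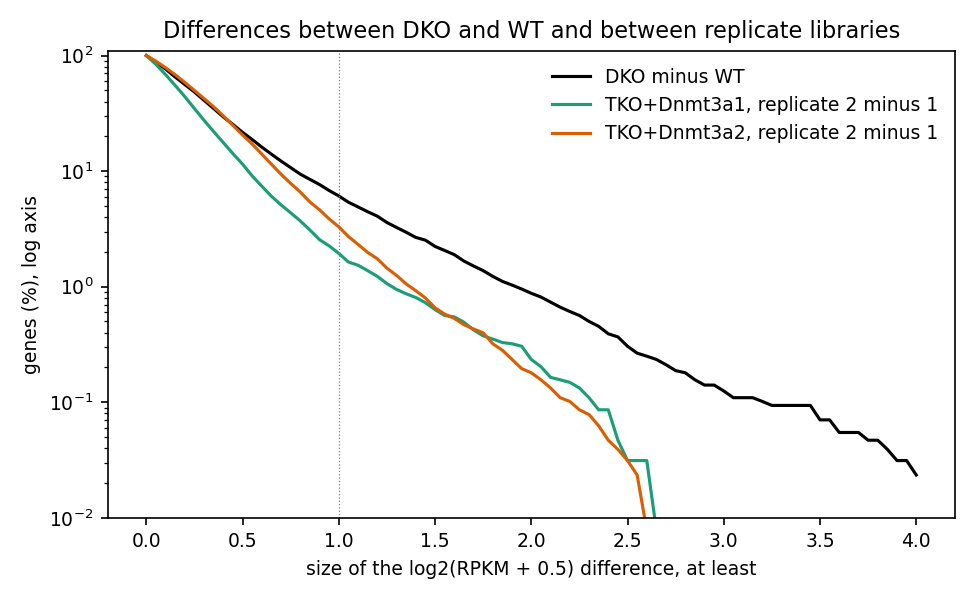
Share of the 12782 genes (percent, log axis) whose log2(RPKM + 0.5) values differ by at least the size on the horizontal axis, for DKO minus WT and for the replicate pairs TKO+Dnmt3a1 and TKO+Dnmt3a2. At a size of 1, marked by the dotted line, the shares are 6.09%, 1.94% and 3.29%, and the curve of DKO minus WT lies above both pairs from there on.

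The rule is no test, and 1 library a group allows none within these groups. A test of each gene was possible with limma. It took the spread from the 2 replicated lines and assumed that DKO and WT vary like them. It called 0 of 12782 genes (0%) at a Benjamini-Hochberg adjusted p under 0.05, with 1164 genes at an unadjusted p under 0.05 and a smallest adjusted p of 0.0954. With TKO+Dnmt3a1 replicate 1 left out the count was 13, with replicate 2 left out it was 10, and without a filter on low values it was 71. It was 13 with additive terms for family and add-back, and 140 with the replicate block, which leaves 1 residual degree of freedom and whose numbers did not pair the libraries. With all libraries and the filter, the log2 difference of Xlr3c was 5.40 ± 0.52 (SE) with an adjusted p of 0.0954 in limma, and that of H19 was 2.38 ± 0.24 with the same adjusted p. The log2 difference of Dnmt3a was −2.49 ± 0.44 with an adjusted p of 0.187 in limma, and that of Zfp57 was −1.70 ± 0.26 with an adjusted p of 0.144. Higher and lower are therefore used of values, not of tested changes.

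Genes different under the rule were mostly of low level. The 556 higher genes had a median of 5.04 RPKM in DKO and 1.40 RPKM in WT, and 231 of them (41.5%) were under 1 RPKM in WT, 28 being listed at 0. Such genes passed the filter through DKO alone and had to be higher there. The 160 lower genes had a median of 1.35 RPKM in DKO and 4.58 RPKM in WT, and 74 of them (46.3%) were under 1 RPKM in DKO, 12 being listed at 0. These passed it through WT alone and had to be lower in DKO. Of genes with a mean under 2 RPKM, 11.3% were higher and 3.73% lower, while at 100 RPKM and over these shares were 1.59% and 0.353%. Among the higher genes DKO exceeded all other 10 libraries for 212 and WT was under all other 10 for 192. Among the lower genes DKO was under the other 10 for 56 and WT above them for 70. These extremes follow in part from choosing genes by the DKO and WT values, and over all genes compared each of the 4 shares was between 10.7% and 13.6%. The counts in each gene list are given with their share of the list, which stands beside 4.35% higher and 1.25% lower over all genes. In short lists 1 gene moves the share by several points. The lists were chosen with earlier results of these data known, so that their shares may follow in part from that choice.

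X-linked families with germline expression were among the largest differences. Xlr3, Xlr4 and Xlr5 genes are X-linked, lymphocyte-regulated genes related to the synaptonemal complex protein Sycp3. All 9 that reached 1 RPKM were higher in DKO (100%), by 2.06 to 5.40 on the log2 scale. Xlr3c was at 21.5 RPKM in DKO, against 0.019 RPKM in WT. It was at 0.277, 0.154 and 0.498 RPKM in DKO+Dnmt3a1, DKO+Dnmt3a2 and DKO+Dnmt3b1, while the 6 TKO family libraries had 2.58 to 9.87 RPKM. DKO was thus the highest of the 11 libraries and WT the lowest. Xlr3a, at 27.7 RPKM in DKO and 0.872 RPKM in WT, was at 0.169 to 1.60 RPKM in the DKO lines with an enzyme put back, while the TKO family had 9.09 to 25.7 RPKM. Xlr5c was at 5.72 RPKM in DKO and 0.057 RPKM in WT, and Xlr4a at 4.40 RPKM in DKO and 0.103 RPKM in WT. The Xlr genes that passed the filter did so through DKO, in which they are high, so that their count adds nothing to these values; of the 12 in the table, 4 were listed at 0 in WT and 2 in DKO. Several of these genes are close copies, and how reads matching more than 1 copy were assigned is not given in the sources used here, so that the level of each is uncertain. The starts of Xlr3b and Xlr3c are shown for their CpG and their likeness, as RefSeq gives them on GRCm38.p6 from 250 bases before to 50 bases after the transcript start, with CpG in capitals (chrX:73191929-73192228, plus strand, and chrX:73265341-73265640, minus strand):
Xlr3b: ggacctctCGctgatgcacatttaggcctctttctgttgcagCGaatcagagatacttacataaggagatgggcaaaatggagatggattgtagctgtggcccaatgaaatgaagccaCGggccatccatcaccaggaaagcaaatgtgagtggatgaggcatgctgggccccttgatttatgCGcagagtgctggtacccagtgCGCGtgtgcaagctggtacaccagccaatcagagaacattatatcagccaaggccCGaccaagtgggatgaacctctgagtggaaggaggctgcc
Xlr3c: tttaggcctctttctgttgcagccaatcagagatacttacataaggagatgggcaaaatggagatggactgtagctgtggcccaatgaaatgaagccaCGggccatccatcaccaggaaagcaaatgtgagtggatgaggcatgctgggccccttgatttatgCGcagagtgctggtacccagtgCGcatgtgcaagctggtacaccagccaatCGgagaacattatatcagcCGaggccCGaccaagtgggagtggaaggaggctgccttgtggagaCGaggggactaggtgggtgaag
Both hold 7 CpG, the median of the 32851 promoters in the RefSeq table, and they share 94.3% of 280 aligned bases. Over the 293 aligned bases of Xlr4a and Xlr4b the identity was 98.3%.

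Rhox genes encode homeobox proteins of germ cells and placenta from a cluster on the X chromosome. Of the 28 listed there, 8 reached 1 RPKM in DKO or WT. Under the fold rule 7 of these were higher in DKO (87.5%) and 0 lower. Only Rhox6, Rhox9 and Rhox13 also reached 1 RPKM in WT, and the other 5 passed the filter through DKO. Rhox1 was at 6.66 RPKM in DKO, against 0.902 RPKM in WT, and at 0.996, 0.71 and 1.82 RPKM once Dnmt3a1, Dnmt3a2 or Dnmt3b1 was put back. Rhox2a was at 2.71 RPKM in DKO and 0.078 RPKM in WT, and Rhox2h at 2.25 RPKM in DKO while listed at 0 in WT. The eighth, Rhox13, was at 5.84 RPKM in DKO and 1.34 RPKM in WT, a difference of 1.79 that did not exceed the replicate pairs. Over the whole cluster 21 genes were listed at 0 in WT and 8 in DKO. Rhox2a and Rhox2e share 99.7% of their 300 promoter bases. Their transcripts were not compared, and the split of reads between such copies is not known here.

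Among Mage genes and Pnma5 the tumour antigen gene Magea4 was at 4.88 RPKM in DKO and 0.16 RPKM in WT. It stood at 0.126, 0.073 and 2.07 RPKM in the DKO lines with Dnmt3a1, Dnmt3a2 and Dnmt3b1, while the TKO family had 0.183 to 0.482 RPKM, so that only DKO and DKO+Dnmt3b1 exceeded 1 RPKM. Pnma5, a paraneoplastic antigen gene, was at 18.3 RPKM in DKO, 2.27 RPKM in WT, and 17.1 to 36.7 RPKM in the TKO family. Magea5 was at 1.46 RPKM in DKO and listed at 0 in WT. Of the 8 genes compared in this list 3 were higher (37.5%) and 0 lower. Magea4 and Magea5 passed the filter through DKO alone and had to be higher. The other 5 Mage genes compared, among them Maged1 at 62.3 RPKM in DKO and 50.3 RPKM in WT, were within 0.54 of no difference. X-linked genes outside these lists included Usp26, a germ cell deubiquitinase, at 13.7 RPKM in DKO and 1.10 RPKM in WT. Nxf3, of the mRNA export factor family, was at 5.36 RPKM in DKO and 0.123 RPKM in WT. Efhc2, an EF-hand protein gene, was at 17.04 RPKM in DKO and 0.742 RPKM in WT, with 0.939 to 2.80 RPKM in the 3 DKO lines with an enzyme put back and 3.07 to 7.97 RPKM in the TKO family.

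**Figure D3:**
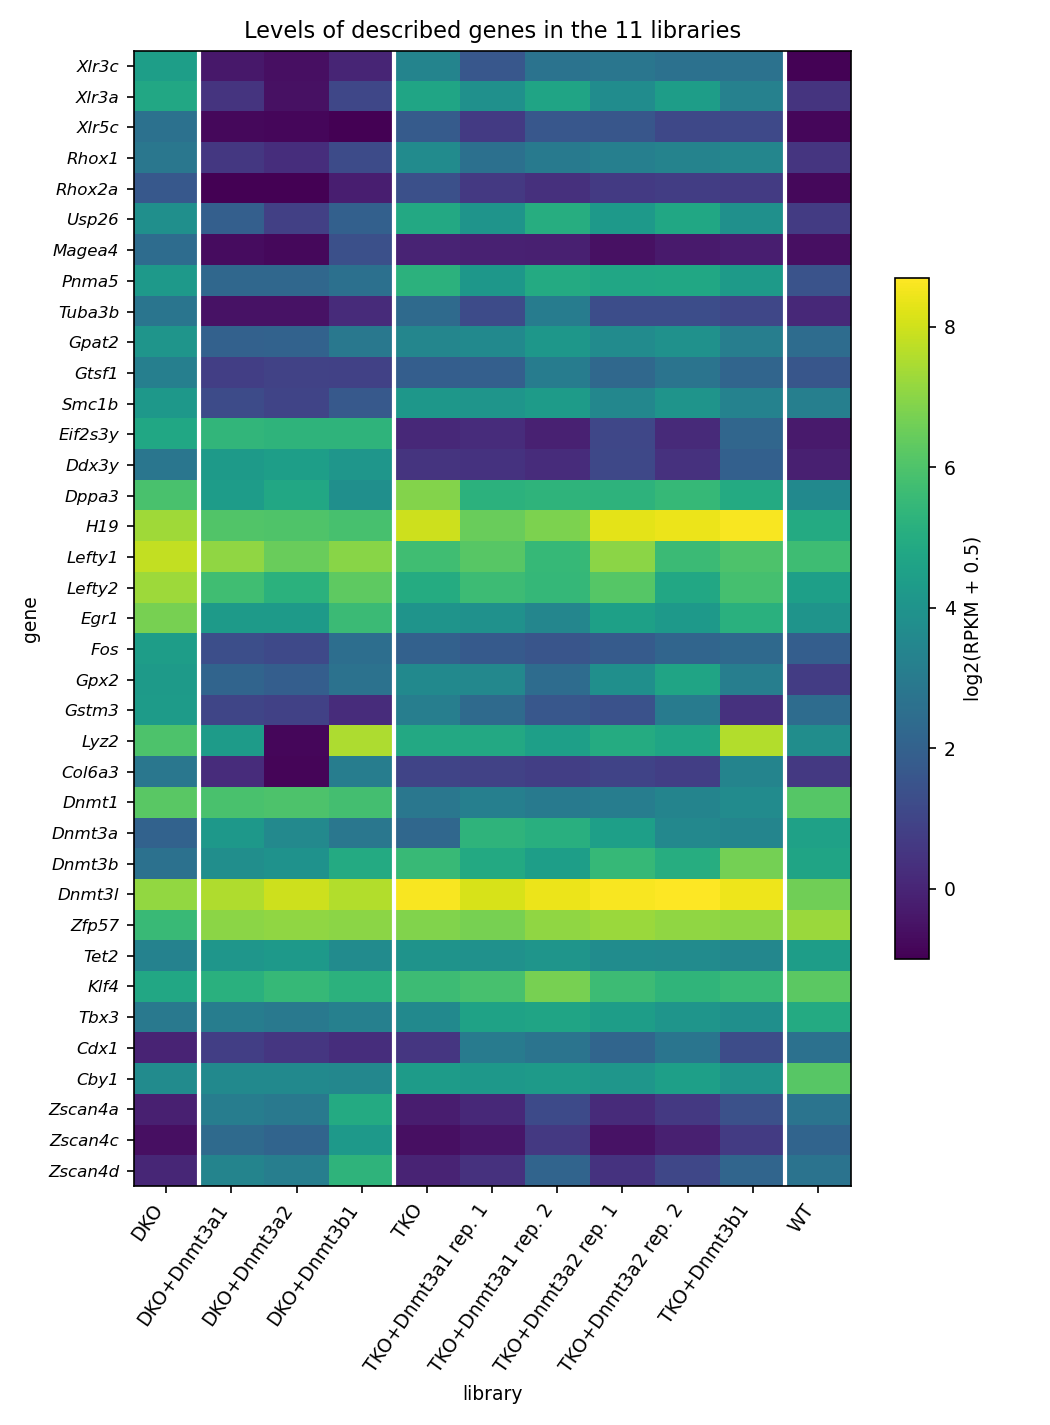
Levels of 37 genes described in the text (rows) in the 11 libraries (columns, DKO at the left and WT at the right), coloured by log2(RPKM + 0.5). White lines separate DKO, its 3 lines with an enzyme put back, the 6 TKO family libraries and WT; Xlr3c is at 21.5 RPKM in DKO, against 0.019 RPKM in WT, and Zfp57 is lowest in DKO, at 46.5 RPKM.

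Other germline genes were split. Of 25 germline genome-defence genes, which act with piRNAs or otherwise guard germ cells against transposons, or carry promoters known to be methylated in ES cells, 7 were higher (28.0%) and 0 lower. Their median difference was 0.52, against 0.04 over all genes. The median gap of this list was 1.03 between the TKO+Dnmt3a1 libraries, larger than 0.52, and 0.03 between those of TKO+Dnmt3a2. Tuba3b, a testis tubulin, was at 6.35 RPKM in DKO and 0.584 RPKM in WT, and its relative Tuba3a at 57.6 RPKM in DKO and 16.97 RPKM in WT. Tuba3b passed the filter through DKO alone and had to be higher. Gpat2, an acyltransferase gene needed for piRNA production, was at 16.0 RPKM in DKO, 4.88 RPKM in WT and 3.56 to 6.88 RPKM in the 3 DKO lines with an enzyme put back. Gtsf1, which assists Piwi proteins, was at 8.62 RPKM in DKO and 2.52 RPKM in WT. Others of the same list lay near WT: the Piwi gene Piwil2 was at 8.22 RPKM in DKO and 8.72 RPKM in WT, and Mov10l1, a piRNA helicase, at 9.55 RPKM in DKO and 9.64 RPKM in WT. Ddx4, the germ cell marker, was at 6.60 RPKM in DKO and 11.5 RPKM in WT. Dazl, an RNA-binding regulator of germ cells, stood at 18.7 RPKM in DKO and 8.73 RPKM in WT, a difference of 1.05 that stayed within the replicate pairs.

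Of 19 meiosis genes 2 were higher (10.5%) and 1 lower (5.26%), with a median of −0.27. The median gap of this list was 0.48 between the TKO+Dnmt3a1 libraries and 0.32 between those of TKO+Dnmt3a2, both larger in size. Hormad2, a protein of unsynapsed chromosome axes, was at 9.47 RPKM in DKO and 2.17 RPKM in WT, and Smc1b, the meiotic cohesin subunit, at 17.7 RPKM in DKO and 8.54 RPKM in WT. Smc1b was at 1.81, 1.47 and 2.79 RPKM in the 3 DKO lines with an enzyme put back, all under WT. Stra8, the retinoic acid target at meiotic entry, was lower, at 10.8 RPKM in DKO and 28.5 RPKM in WT. It was lower again with an enzyme put back, at 2.36 to 9.32 RPKM, while the TKO family had 26.5 to 129 RPKM.

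The lower genes of DKO included those that mark the 2-cell-like state. This state is taken up by a small share of ES cells at a time and is marked by the Zscan4 cluster, whose proteins are known for telomere elongation. None of the 17 genes compared had a higher value in DKO, 10 were lower under the fold rule (58.8%), and the median difference was −1.67. Of the 17, 12 were under 1 RPKM in DKO, all 10 lower ones among them, and passed the filter through WT, in which they are high, so that this count and median add nothing to the values. With no filter on low values the median of 23 genes was −1.16. Zscan4a was at 0.401 RPKM in DKO, against 6.09 RPKM in WT, Zscan4c at 0.162 RPKM in DKO and 3.89 RPKM in WT, and Zscan4d at 0.523 RPKM in DKO and 5.94 RPKM in WT. In DKO+Dnmt3a1, DKO+Dnmt3a2 and DKO+Dnmt3b1, Zscan4d was at 9.97, 8.48 and 39.3 RPKM, above WT in each, while the TKO family had 0.478 to 3.95 RPKM. Tcstv3, another gene of this state, was at 3.22 RPKM in DKO and 13.6 RPKM in WT, but differed as much between replicates. Dppa2 and Dppa4, known activators of 2-cell genes, were at 21.0 and 61.8 RPKM in DKO, and at 23.4 and 74.9 RPKM in WT. The list also varied between replicates: its median gap was 1.06 between the TKO+Dnmt3a1 libraries and 0.37 between those of TKO+Dnmt3a2. In RNA from whole cultures, fewer cells in this state and less RNA per cell cannot be told apart. How reads of such copies were assigned is not given in the sources used here, so that single Zscan4 values are uncertain. To show their likeness and their CpG, the starts of Zscan4c (chr7:11005495-11005794, plus strand) and Zscan4d (chr7:11166099-11166398, minus strand) are printed with CpG in capitals:
Zscan4c: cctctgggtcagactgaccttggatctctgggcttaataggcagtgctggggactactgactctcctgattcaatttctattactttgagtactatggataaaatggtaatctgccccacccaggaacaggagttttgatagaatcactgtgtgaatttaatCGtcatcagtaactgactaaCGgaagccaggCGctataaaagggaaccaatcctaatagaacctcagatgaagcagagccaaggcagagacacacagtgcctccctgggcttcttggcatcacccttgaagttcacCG
Zscan4d: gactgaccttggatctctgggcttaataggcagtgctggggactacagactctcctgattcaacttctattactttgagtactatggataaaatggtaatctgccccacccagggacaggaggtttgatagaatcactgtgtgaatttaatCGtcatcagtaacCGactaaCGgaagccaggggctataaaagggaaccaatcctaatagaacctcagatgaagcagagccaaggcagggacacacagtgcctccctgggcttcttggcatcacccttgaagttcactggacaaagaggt
They hold 4 and 3 CpG, and 68.6% and 76.7% of RefSeq promoters hold at least as many. Their identity was 97.6% over 287 aligned bases. For comparison, the starts of 1 higher and 1 lower gene outside these families are shown: Gpat2, higher in DKO, holds 15 CpG (chr2:127424949-127425248, plus strand), and Klf4, lower in DKO, holds 40 (chr4:55532426-55532725, minus strand), both again in capitals:
Gpat2: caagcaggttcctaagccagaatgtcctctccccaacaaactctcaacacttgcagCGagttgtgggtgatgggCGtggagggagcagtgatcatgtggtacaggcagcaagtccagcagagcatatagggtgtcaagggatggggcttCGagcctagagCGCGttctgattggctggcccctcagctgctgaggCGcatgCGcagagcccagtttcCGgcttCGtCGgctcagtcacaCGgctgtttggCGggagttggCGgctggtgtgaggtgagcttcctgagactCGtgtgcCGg
Klf4: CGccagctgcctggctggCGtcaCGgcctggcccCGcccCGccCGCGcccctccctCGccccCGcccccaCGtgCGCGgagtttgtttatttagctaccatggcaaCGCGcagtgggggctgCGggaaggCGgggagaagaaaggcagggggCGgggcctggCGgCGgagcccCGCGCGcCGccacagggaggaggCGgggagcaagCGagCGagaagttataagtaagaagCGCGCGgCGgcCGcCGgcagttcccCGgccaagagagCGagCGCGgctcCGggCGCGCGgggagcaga
At least as many CpG were found in 34.6% of RefSeq promoters for Gpat2 and in 3.91% for Klf4. No promoter comparison was made between higher and lower genes, because RefSeq promoters matched only 68.9% of the higher and 60.6% of the lower genes, under the 80% needed.

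Of 29 naive pluripotency genes 1 was higher (3.45%) and 4 were lower (13.8%), against 4.35% and 1.25% over all genes, with a median of 0.00. Tbx3, a T-box factor of self-renewal downstream of LIF, was at 7.15 RPKM in DKO and 29.8 RPKM in WT, with 7.16 to 8.76 RPKM in the DKO lines with an enzyme put back. Klf4, a Krüppel-like factor of the naive state, was at 27.3 RPKM in DKO and 75.9 RPKM in WT. DKO was the lowest of the 11 libraries for both. Tdgf1, the Nodal coreceptor Cripto, was at 212 RPKM in DKO and 453 RPKM in WT. Zfp57, a zinc finger protein that binds methylated imprinting control regions, was at 46.5 RPKM in DKO, 152 RPKM in WT and 103 to 150.1 RPKM in the other 9 libraries. Dppa3, which encodes Stella, a protein that shields the maternal genome from demethylation in the zygote, was the 1 higher gene. It was at 60.2 RPKM in DKO, 11.7 RPKM in WT, 13.6 to 27.4 RPKM with an enzyme put back, and 29.6 to 118 RPKM in the TKO family. Esrrb was at 138 RPKM in DKO and 137 RPKM in WT.

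Of 22 formative and primed epiblast genes 5 were higher (22.7%) and 2 lower (9.09%). Grhl2, an epithelial transcription factor, was at 8.89 RPKM in DKO and 2.28 RPKM in WT, and the tight junction gene Cldn6 at 48.4 RPKM in DKO and 16.0 RPKM in WT. Pou3f1 (Oct6) was at 9.65 RPKM in DKO and 4.42 RPKM in WT. Otx2, the regulator of the exit from the naive state, was at 13.0 RPKM in DKO and 7.60 RPKM in WT, which is under 2-fold. The 2 lower genes were the targeted Dnmt3b and Etv4, an ETS factor downstream of FGF, at 27.7 RPKM in DKO and 56.8 RPKM in WT.

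In the Nodal pathway the ligand Nodal was at 25.8 RPKM in DKO and 27.5 RPKM in WT. Its feedback inhibitors were the highest members relative to WT. Lefty1 was at 223 RPKM in DKO, 50.7 RPKM in WT, and 136, 88.0 and 126 RPKM in DKO+Dnmt3a1, DKO+Dnmt3a2 and DKO+Dnmt3b1. Lefty2 was at 154 RPKM in DKO, 21.5 RPKM in WT and 36.5 to 78.3 RPKM in these 3 lines. DKO was the highest of the 11 libraries for both. Inhbb, an activin subunit gene, was at 6.11 RPKM in DKO and 24.1 RPKM in WT. Receptors and Smad genes were closer to WT, such as Acvr2b at 14.7 RPKM in DKO and 15.5 RPKM in WT and Smad4 at 32.3 RPKM in both. Of all 30 genes 4 were higher (13.3%), 2 lower (6.67%), and the median was 0.18.

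In the FGF and ERK list, 3 of 24 genes were higher (12.5%) and 1 lower (4.17%). The immediate early genes Egr1 and Fos were at 106 and 20.5 RPKM in DKO, and at 15.5 and 3.20 RPKM in WT. Their levels in the other 9 libraries were 10.5 to 48.8 RPKM for Egr1 and 1.72 to 5.20 RPKM for Fos, so that DKO stood above all others. Dusp1, a phosphatase induced with them, was at 60.4 RPKM in DKO and 28.3 RPKM in WT. Other ERK feedback genes were not higher: Dusp6 was at 16.1 RPKM in DKO and 23.2 RPKM in WT, and Spry4 at 23.0 RPKM in DKO and 35.6 RPKM in WT.

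The LIF list had 1 higher (4.55%) and 2 lower (9.09%) genes of 22, the lower ones being Tbx3 and Klf4. Its receptor and feedback genes lay within 2-fold, with Lifr at 11.2 RPKM in DKO and 10.6 RPKM in WT and Socs3 at 43.3 RPKM in DKO and 64.7 RPKM in WT. Of 15 BMP genes 3 were higher (20.0%) and 1 lower (6.67%). The ligand Bmp4 was at 5.36 RPKM in DKO, 13.0 RPKM in WT and 12.0 to 19.6 RPKM with an enzyme put back. The target genes Id3 and Id4 were at 18.8 and 6.11 RPKM in DKO, and at 8.07 and 1.74 RPKM in WT, while Id1 was at 12.4 RPKM in DKO and 13.6 RPKM in WT. Grem1, a BMP antagonist of fibroblasts, was at 7.13 RPKM in DKO and 1.35 RPKM in WT, with 0.338 RPKM in DKO+Dnmt3a2 and 54.5 RPKM in DKO+Dnmt3b1. Among 14 Wnt genes 0 were higher and 2 lower (14.3%). Cdx1, a caudal homeobox gene and Wnt target, was at 0.48 RPKM in DKO and 5.72 RPKM in WT. It passed the filter through WT alone and had to be lower. Cby1, a β-catenin antagonist, was at 12.5 RPKM in DKO and 72.7 RPKM in WT. Axin2, the usual Wnt readout, was at 1.78 RPKM in DKO and 3.44 RPKM in WT. For Cby1, WT stood apart from all other libraries, which had 10.8 to 11.8 RPKM in the DKO lines with an enzyme put back and 15.5 to 21.8 RPKM in the TKO family.

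**Figure D4:**
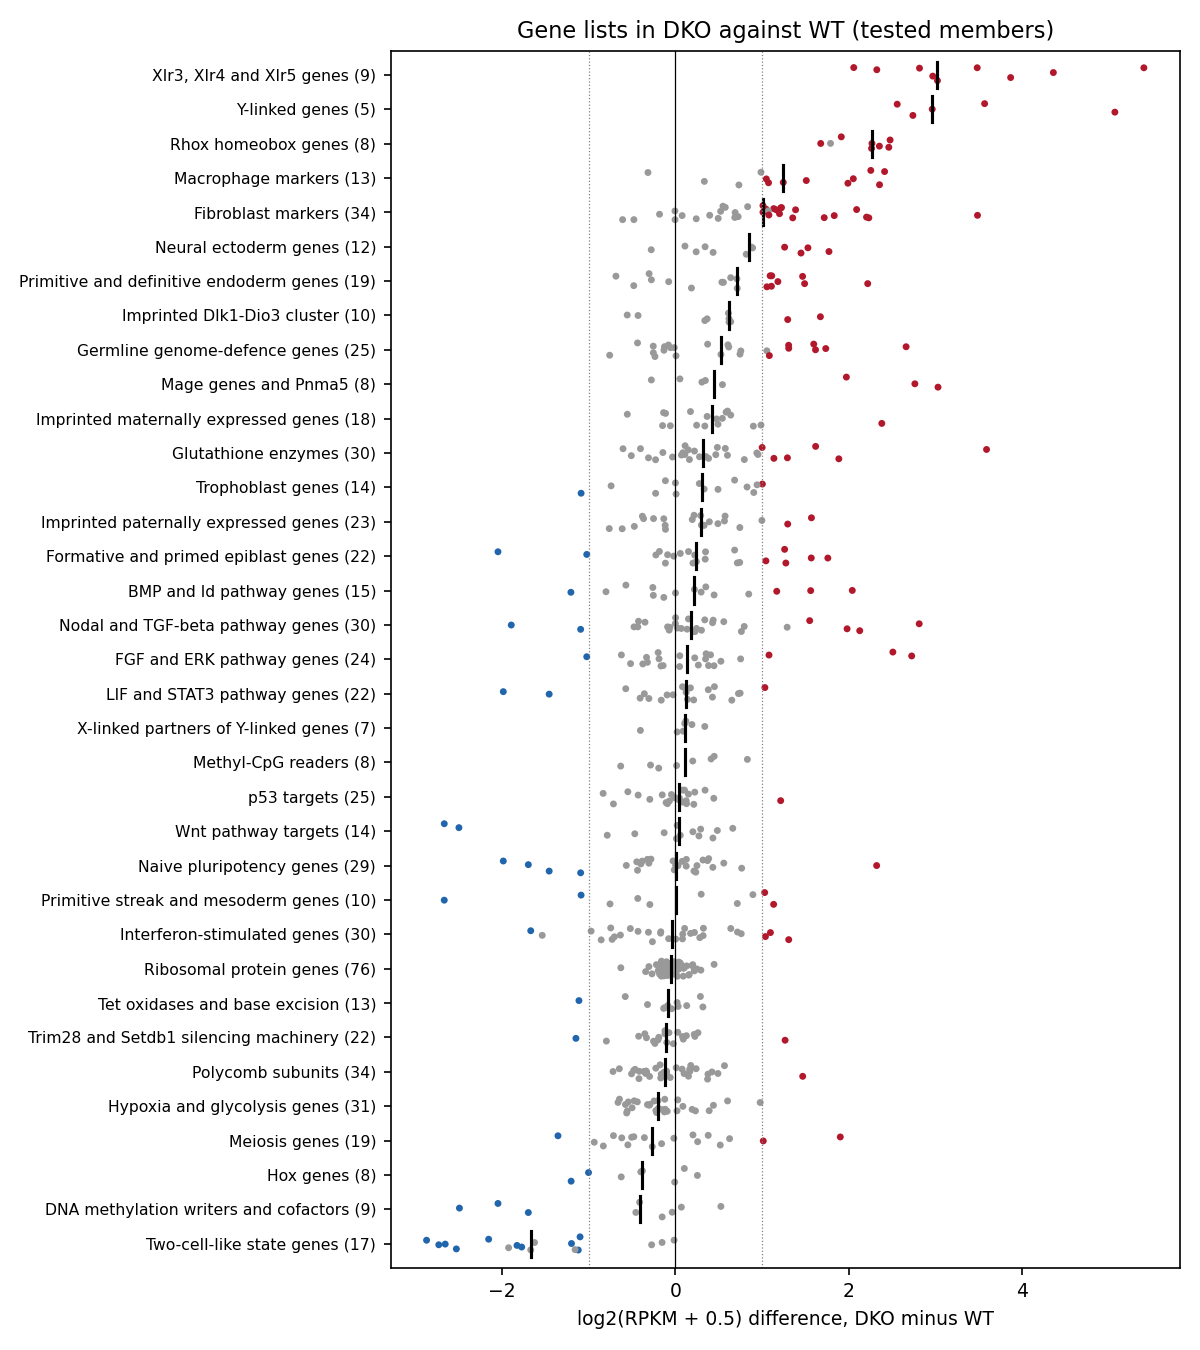
Log2(RPKM + 0.5) differences, DKO minus WT, of the compared members of 35 gene lists (1 row a list, number of members in parentheses, 1 point a gene; red, higher in DKO by the fold rule; blue, lower; grey, neither; black bars, medians; dotted lines, 2-fold). The Xlr list has the highest median, 3.02, and the 2-cell-like list the lowest, −1.67; the ribosomal protein genes lie around −0.05.

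The factors that define other lineages were low in both libraries. Of 19 endoderm genes 8 were higher (42.1%) and 0 lower, with a median of 0.71; 3 of the 8 passed the filter through DKO alone. Thbd (thrombomodulin) was at 3.69 RPKM in DKO and 0.40 RPKM in WT, and Dab2, an endocytic adaptor of primitive endoderm, at 4.65 RPKM in DKO and 1.33 RPKM in WT. The defining factors Gata4 and Gata6 did not share this direction: Gata4 was at 1.54 RPKM in DKO and 2.79 RPKM in WT, and Gata6 at 1.43 RPKM in DKO and 1.84 RPKM in WT. Sox17 was under 1 RPKM in both, at 0.582 RPKM in DKO and 0.148 RPKM in WT. Thbd and Dab2 were also at 13.3 and 10.6 RPKM in DKO+Dnmt3b1, against 0.242 and 2.11 RPKM in DKO+Dnmt3a2. Of 12 neural genes 4 were higher (33.3%) and 0 lower, and 2 of the 4 passed the filter through DKO alone. Pax6, a neural and eye transcription factor, was at 4.78 RPKM in DKO, 1.05 RPKM in WT and 4.10 to 6.20 RPKM with an enzyme put back, and Sox3 was at 4.89 RPKM in DKO and 1.75 RPKM in WT. Sox1, which defines early neural ectoderm, was at 3.07 RPKM in DKO and 2.32 RPKM in WT. Of 10 mesoderm genes 2 were higher, the mesenchymal factors Twist1 and Snai2, and 2 were lower, Cdx1 and Eomes, or 20.0% each way; the lower ones passed the filter through WT alone. Snai2 was at 0.361 RPKM in DKO+Dnmt3a2 and 15.8 RPKM in DKO+Dnmt3b1. Of 14 trophoblast genes 1 was higher and 1 lower (7.14% each), and Cdx2, the defining factor, was at 0.078 RPKM in DKO and 0.043 RPKM in WT. The lower trophoblast gene, again Eomes, passed the filter through WT alone. The 8 Hox genes compared had 0 higher and 2 lower (25.0%), both of which passed the filter through WT alone, among them Hoxb13 at 0.409 RPKM in DKO and 1.32 RPKM in WT.

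Feeder-type genes were higher in DKO too. Of 34 fibroblast markers 17 were higher (50%) and 0 lower, with a median of 1.01 and a summed level of 1422 RPKM in DKO and 880.3 RPKM in WT. Of the 17, 1 passed the filter through DKO alone. The median gap of this list was −0.17 between the TKO+Dnmt3a1 libraries and −0.66 between those of TKO+Dnmt3a2. Col1a2, a fibrillar collagen chain, was at 58.0 RPKM in DKO and 17.3 RPKM in WT. The matrix protease gene Mmp3 was at 23.1 RPKM in DKO and 1.61 RPKM in WT, with 44.9 RPKM in DKO+Dnmt3b1 and 0.135 RPKM in DKO+Dnmt3a2. Not all markers shared the direction, with Vim at 188 RPKM in DKO and 189 RPKM in WT and Pdgfrb at 3.86 RPKM in DKO and 5.58 RPKM in WT. Of 13 macrophage markers 9 were higher (69.2%) and 0 lower, with a summed level of 120.1 RPKM in DKO and 47.7 RPKM in WT. Of these 13, 9 passed the filter through DKO alone, 7 of the 9 higher ones among them, so that the count adds nothing to the values. At 5 RPKM or more 1 of 3 was higher and the median was 0.33, against 1.24. Lyz2 (lysozyme) was at 63.3 RPKM in DKO and 12.9 RPKM in WT, and C1qa, a complement subunit gene, at 4.26 RPKM in DKO and 0.394 RPKM in WT. The mean log2 value of the fibroblast list was 4.25 in DKO and 3.32 in WT, between 2.16 in DKO+Dnmt3a2 and 5.55 in DKO+Dnmt3b1, and that of the macrophage list was 1.37 in DKO and 0.35 in WT. Of the 556 higher genes 166 (29.9%), and of the 160 lower genes 32 (20.0%), were at least 2-fold higher in DKO+Dnmt3b1 than in DKO+Dnmt3a2, as were 8.29% of all genes compared. This contrast also took in genes outside the marker lists and is no measure of feeder RNA. In DKO+Dnmt3b1 and DKO+Dnmt3a2, Zscan4d was at 39.3 and 8.48 RPKM, and Magea4 at 2.07 and 0.073 RPKM. Without such genes, a setting chosen after seeing the data, 390 of 11722 were higher (3.33%) and 128 lower (1.09%). In both marker lists 0 genes were listed at 0 in DKO or in WT. The part of feeder RNA in single differences was not tested.

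Of 18 maternally expressed imprinted genes 1 was higher (5.56%) and 0 lower, with a median of 0.42. Of 23 paternally expressed ones 2 were higher (8.7%) and 0 lower, with a median of 0.29. Over all genes 4.35% were higher. H19, the maternally expressed growth-limiting RNA, was at 157 RPKM in DKO and 29.8 RPKM in WT. It was at 66.9, 65.6 and 57.8 RPKM in DKO+Dnmt3a1, DKO+Dnmt3a2 and DKO+Dnmt3b1, with 89.8 to 391 RPKM across the TKO family. Its neighbour Igf2, the paternally expressed growth factor, was at 27.7 RPKM in DKO and 8.99 RPKM in WT, with 12.0 RPKM in DKO+Dnmt3a2 and 35.5 RPKM in DKO+Dnmt3b1. Both neighbours were thus higher in DKO. Dlk1, a paternally expressed Notch ligand relative, was at 2.12 RPKM in DKO and 0.567 RPKM in WT. Of 10 transcripts in its Dlk1-Dio3 cluster 2 were higher (20.0%), both through DKO alone at the filter, and 0 lower, and the maternal RNA Meg3 was at 40.1 RPKM in DKO and 31.6 RPKM in WT. Cdkn1c, a maternally expressed cell cycle inhibitor, was at 12.7 RPKM in DKO and 6.16 RPKM in WT, a difference of 0.99, and Peg3 was at 21.1 RPKM in DKO and 14.1 RPKM in WT. Single-parent expression was not measured.

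Other genes that act on chromatin were read against the same 4.35% higher and 1.25% lower. Among the methylcytosine oxidases Tet2 was at 9.32 RPKM in DKO, 20.7 RPKM in WT and 10.7 to 18.5 RPKM in the other 9 libraries. Tet1 was at 42.7 RPKM in DKO and 44.0 RPKM in WT. Of 13 genes of oxidation and base excision Tet2 was the 1 past the fold rule (7.69% lower), and of 8 methyl-CpG readers 0 were called in either direction. Of 34 Polycomb genes 1 was higher (2.94%), the corepressor Bcor at 16.9 RPKM in DKO and 5.78 RPKM in WT, and 0 were lower. Of 22 genes of the Trim28 and Setdb1 machinery, which silences retroelements, 1 was higher and 1 lower (4.55% each). Zfp809 was higher at 17.6 RPKM in DKO and 7.02 RPKM in WT. Yy1 was lower at 21.1 RPKM in DKO and 47.4 RPKM in WT, with 26.3 to 34.2 RPKM in the DKO lines with an enzyme put back and 43.3 to 56.9 RPKM in the TKO family.

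Of 30 glutathione enzymes 6 were higher (20.0%, against 4.35% over all genes) and 0 lower, with a median of 0.32. Gpx2, a glutathione peroxidase gene, was at 19.2 RPKM in DKO, 1.14 RPKM in WT, 3.21 to 5.81 RPKM with an enzyme put back and 4.85 to 24.8 RPKM in the TKO family. Gstm3, a glutathione transferase gene, was at 19.3 RPKM in DKO and 4.86 RPKM in WT, and was highest in DKO of all 11 libraries. Gstp2 was at 48.8 RPKM in DKO and 15.6 RPKM in WT, and its close copy Gstp1 at 59.5 RPKM in DKO and 29.5 RPKM in WT, the gene just past the 2-fold limit. Fanca, a DNA repair gene at 10.6 RPKM in DKO and 21.7 RPKM in WT, was just past it in the other direction. Of 30 interferon-stimulated genes 3 were higher (10%) and 1 lower (3.33%), with a median of −0.04. Bst2 was at 195 RPKM in DKO and 94.9 RPKM in WT, while Cxcl10 was at 0.643 RPKM in DKO and 3.13 RPKM in WT. Isg15 was at 2.09 RPKM in DKO and 7.02 RPKM in WT, within the replicate gaps. Cxcl10, the 1 lower gene, passed the filter through WT alone and had to be lower. Of 25 p53 targets 1 was higher (4.0%), Btg2 at 27.9 RPKM in DKO and 11.7 RPKM in WT, and Cdkn1a was at 86.0 RPKM in DKO and 74.2 RPKM in WT. None of 31 hypoxia and glycolysis genes or 76 ribosomal protein genes was called in either direction, with medians of −0.20 and −0.05.

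Y-linked genes separated the 2 libraries. Eif2s3y, a translation factor subunit gene, was at 26.7 RPKM in DKO and 0.312 RPKM in WT, and Ddx3y, an RNA helicase gene, at 6.46 RPKM in DKO and 0.394 RPKM in WT. Uba1y and Zfy1 were at 5.42 and 2.84 RPKM in DKO and listed at 0 in WT. All 5 Y-linked genes compared passed the filter through DKO alone. The 3 DKO lines with an enzyme put back had 39.4 to 41.4 RPKM of Eif2s3y, and the TKO family 0.427 to 4.14 RPKM. J1 is known as a male line, and how the WT and TKO family libraries came to these levels was not tested. The 7 X-linked partner genes were not called, with Ddx3x at 122 RPKM in DKO and 114 RPKM in WT.

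Counted by chromosome, 50 of the 443 X-linked genes were higher in DKO, or 11.3%, and 4 were lower. In the Rhox, Xlr and Mage lists 19 of 25 were higher (76%), and outside them 31 of 418, or 7.42%. Of the 19, 5 Rhox, 9 Xlr and 2 Mage genes passed the filter through DKO alone and had to be higher. Genes outside the lists also passed it this way, among them Nxf3 at 0.123 RPKM in WT. The X-linked shares therefore follow in part from the filter. Over all chromosomes 41.5% of the higher genes were under 1 RPKM in WT. On the autosomes between 2.77% and 5.19% of genes were higher. Lower genes were most frequent on chromosome 12, with 14 of 445 (3.15%), and chromosome 8, with 20 of 716 (2.79%), and chromosome 16 had 0 of 384. The 14 on chromosome 12 included the targeted gene Dnmt3a. They also included 6 neighbouring genes, among them Gm8300, that were under 1 RPKM in DKO and had to be lower. Chromosome medians, Y left out, ran from −0.07 on chromosome 8 to 0.10 on chromosome 7. Between the TKO+Dnmt3a1 libraries chromosome 11 had a median gap of 0.36, which makes the fold rule stricter there.

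**Figure D5:**
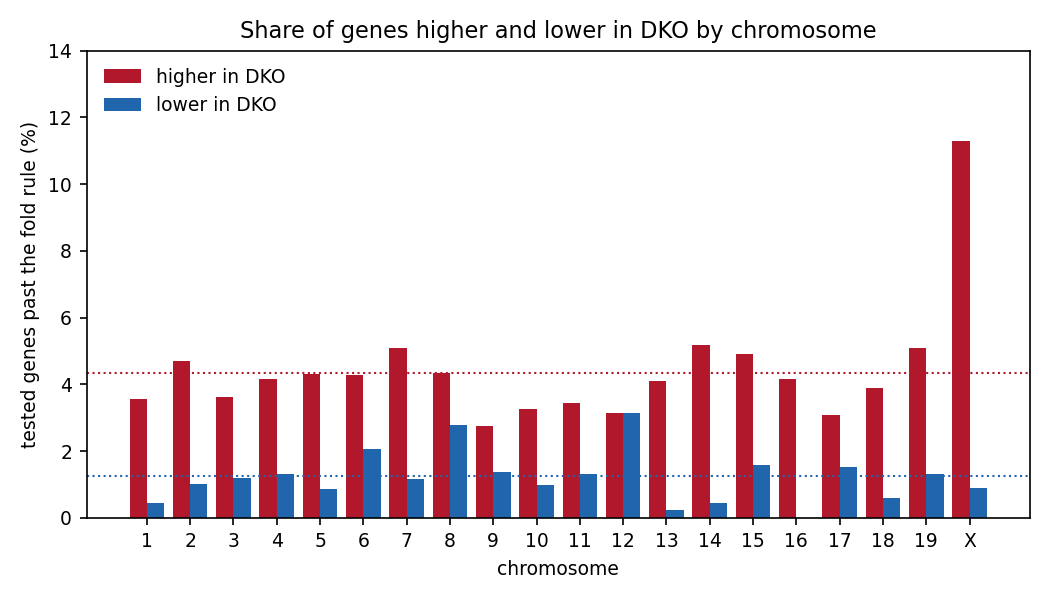
Share of the compared genes of each chromosome (percent, bars from 0) that were higher (red) or lower (blue) in DKO than in WT by the fold rule; the Y chromosome, with 5 of 5 genes higher, is left out. Dotted lines mark the shares over all genes, 4.35% and 1.25%, and the X chromosome stands at 11.3% higher. The bars include genes that passed the filter through DKO or WT alone.

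Neighbouring genes sometimes differed together. There were 13 runs of at least 3 adjacent compared genes that were all higher, with 50 genes in all, and 3 runs of lower genes with 14. How often such runs occur between replicate libraries was not tested. Beside the Rhox, Xlr and Y clusters, the higher runs held H19, Mir675 and Igf2 on chromosome 7 and the complement genes C1qa, C1qb and C1qc on chromosome 4. The Xlr, Y-linked and C1q genes of these runs were under 1 RPKM in WT. They passed the filter through DKO alone and had to be higher, as did 5 Rhox genes. The microRNA host gene Mir17hg on chromosome 14 was at 16.6 RPKM in DKO and 5.49 RPKM in WT. It and the microRNA genes inside it, which overlap it, were counted in separate runs, although they are not independent of each other. The troponin genes Tnnt1 and Tnni3 on chromosome 7 were at 21.1 and 9.75 RPKM in DKO, and at 7.41 and 4.47 RPKM in WT. The lower runs were the Zscan4 cluster on chromosome 7, the Gm8300 cluster of 6 genes on chromosome 12, and Yy1, Wars and Wdr25 on chromosome 12. All genes of the Zscan4 and Gm8300 runs were under 1 RPKM in DKO. They passed the filter through WT alone and had to be lower. Wars, a tryptophan tRNA synthetase gene, was at 12.8 RPKM in DKO and 26.3 RPKM in WT. Overlapping neighbours cannot be separated, since the library kit keeps no strand.

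Several of the largest differences lay outside every list. Aass, an enzyme of lysine breakdown, was at 30.4 RPKM in DKO, 2.30 RPKM in WT, 10.3 to 17.1 RPKM with an enzyme put back and 4.89 to 21.6 RPKM in the TKO family. Cox7b2, a testis relative of a cytochrome oxidase subunit, was at 12.3 RPKM in DKO and 0.451 RPKM in WT. Bdh2, a hydroxybutyrate dehydrogenase gene, was at 2.0 RPKM in DKO, 10.4 RPKM in WT, 2.52 to 7.88 RPKM with an enzyme put back and 0.839 to 2.92 RPKM in the TKO family. Of the 15 largest lower differences 5 were microRNA genes, or 7 of the 15 largest when genes with clone names were left out. Of these 7, 6 were listed at 0 in DKO and at 1.72 to 2.98 RPKM in WT; such short genes rest on few reads. At the filter's edge Zfp27 was kept with 1 RPKM in DKO and 0.854 RPKM in WT, and Runx1t1 was left out with 0.999 RPKM in DKO and 0.419 RPKM in WT.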

How the data were processed

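PolyA RNA was made into libraries with the TruSeq RNA kit v2, which keeps no strand, per the labels' protocols. Per the submitters' processing notes, the build was mm9 and the tools STAR 2.4.0 and bcl2fastq 1.8.4. For each of 24016 genes the authors deposited 1 RPKM value a library. The counting tool, gene lengths and treatment of copies are not given in the sources used here. The file gives no counts, so that read totals were estimated from the spacing of RPKM values of short genes (up to 400 nt), of which at least 99.2% came out whole within 0.05 read.

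RPKM was put on a log2 scale with a pseudocount of 0.5, which understates the differences of low genes. Genes at 1 RPKM or more in DKO or WT were compared by the fold rule and with limma 3.58.1 in R 4.3.3 (9 group means over 11 libraries, 2 residual degrees of freedom). Its p-values reflect the spread of the paired libraries alone, which the labels do not say came from separate cultures. Names, chromosomes and neighbours came from RefSeq on GRCm38.p6, which matched 23960 genes and was not used for coordinates of the mm9 values. Named were the 15 largest higher and lower differences without clone names, up to 4 members of each of 35 lists past the rule, and the methyltransferase genes; other members are given with their values. A few genes that this rule names are not reported here. Members and lists were chosen with earlier results of these data known. Alternatives covered pseudocounts, filters, scaling, folds, replicates, designs and chromosome medians.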

Additional observations from a re-analysis of the deposited data

How the results depend on the processing

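Higher genes numbered 402 to 704 and lower genes 108 to 250 over pseudocounts of 0.1 and 1, no filter on low values, the 2 scalings, 2-fold alone, chromosome medians removed, short RNA genes left out and either replicate pair alone; the 250 lower genes came with quantile normalization. At 5 RPKM or more, 280 were higher and 72 lower, and at 4-fold 88 and 23. Past 2-fold, the TKO+Dnmt3a1 pair had 208 genes with a pseudocount of 1, and the TKO+Dnmt3a2 pair 815 with 0.1 and 331 with 1. Limma called 71 genes with no filter on low values, 13 with additive terms for family and add-back, 140 with the replicate block, which leaves 1 residual degree of freedom, and 0 to 13 with 1 replicate library left out; it called 0 with either pseudocount, either scaling or genes at 1 RPKM or more in any library. Replicate numbers did not pair the libraries (r = 0.0791 between deviations, 2 pairs), so that the block result says nothing on effect size.

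List medians were recomputed under 6 settings; 31 of 209 moved past their replicate gap. With a pseudocount of 0.1 they were 3.37 (Rhox), 4.84 (Xlr), 0.48 (Mage and Pnma5), 4.88 (Y-linked) and 1.83 (macrophage). With a pseudocount of 1 they were 1.62 (Rhox), 0.41 (Mage and Pnma5), 2.42 (Y-linked) and 0.90 (macrophage). With no filter on low values they were 1.17 (Rhox), 0.33 (Mage and Pnma5), 0.0012 (BMP), 0.61 (endoderm), 0.28 (neural), 0.030 (trophoblast), 0.24 (maternally expressed), 2.65 (Y-linked) and 0.99 (macrophage). At 5 RPKM or more they were 1.85 (Rhox), 4.11 (Xlr), −0.77 (mesoderm), 0.37 (maternally expressed), 3.57 (Y-linked) and 0.33 (macrophage, 3 genes). Median ratio scaling gave −0.16 (Tet and base excision), 0.38 (Mage and Pnma5) and 0.35 (maternally expressed), and quantile normalization 0.38 (Mage and Pnma5), 0.023 (BMP), 0.61 (endoderm) and 0.35 (maternally expressed). The mesoderm median was 0.00 before. Of the named genes' differences under the same settings 581 stayed on their side of the fold rule, 55 were no longer counted past it, and 0 changed sign. Of the 55, 36 came with the minimum of 5 RPKM, which drops genes and leaves their differences as they were. A pseudocount of 1 gave 8, quantile normalization 6 and median ratio scaling 5. Why the list medians and the other differences moved was not tested. Depth limits the genes of low level, and 58 of the 556 higher and 19 of the 160 lower genes were short RNA genes with few reads each.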
